A study of Saccharomyces cerevisiae with 8 samples.

Results

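The cytosolic ribosomal protein genes of budding yeast were followed in 8 total RNA libraries of *Saccharomyces cerevisiae* strain W303. The family was taken by gene name, as the RPL and RPS genes and the stalk genes RPP0, RPP1A, RPP1B, RPP2A and RPP2B. RPS1A, which lies beside SIR3, was left out. This gave 136 of the 5798 gene rows, with 76 genes of the large subunit, 55 of the small subunit and 5 of the stalk. All 136 passed the filter on low values. The 4 strains had 2 libraries each and were all grown exponentially. GPD-SIR3 overexpressed SIR3 and GPD-SIR3-A2Q overexpressed the A2Q point mutant of SIR3, both named for the strong constitutive GPD promoter. SIR3Δ lacked SIR3, and WT was the wild type. Sir3 is the subunit of the yeast silencing complex that holds nucleosomes together, at telomeres above all. Nothing in the labels tells whether a strain's libraries stem from different cultures, so the spread behind each p may be technical.

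A cytosolic ribosome holds 1 copy of most of its proteins, and most of these proteins in budding yeast are encoded by a pair of paralogous genes named A and B. The genes take a large part of the transcription of growing cells, and many carry an intron in a genome where introns are rare. Rap1, Fhl1, Ifh1, Sfp1 and Hmo1 are known to act on their promoters, and transcription follows nutrient signals through the TOR and protein kinase A pathways. Introns of some members host small nucleolar RNAs (snoRNAs), which guide chemical modification of ribosomal RNA.

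Levels are the read counts the authors scaled so that genes sum to 7006670 in each library. The depth behind them was 7006670 to 18077542 reads on genes. SIR3 followed the labels, with 10730 and 13865 in GPD-SIR3, 13132 and 13217 in GPD-SIR3-A2Q, 39.1 and 36.8 in SIR3Δ, and 448 and 484 in WT. Differences are given on the scale of log2(scaled count + 1), ± SE, from limma fitted to all 8 libraries and 5473 genes, with Benjamini-Hochberg adjusted p and a threshold of 0.05. The comparisons with WT share the same WT libraries. snoRNAs took 18.0% to 22.8% of reads in 7 libraries and 15.4% in WT 2.

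3 sets of sequence bear on what follows, and are from the R64 reference genome, 5′ to 3′. The first set holds the upstream regions of RPS9A and RPS14B, members at which all 4 libraries with a GPD promoter lay below the other 4. Each runs from base 450 to base 151 before the start codon, at XVI:404500-404799 and X:73337-73636, both on the forward strand. Capitals mark GACGC, an element associated with Fhl1.
RPS9A upstream: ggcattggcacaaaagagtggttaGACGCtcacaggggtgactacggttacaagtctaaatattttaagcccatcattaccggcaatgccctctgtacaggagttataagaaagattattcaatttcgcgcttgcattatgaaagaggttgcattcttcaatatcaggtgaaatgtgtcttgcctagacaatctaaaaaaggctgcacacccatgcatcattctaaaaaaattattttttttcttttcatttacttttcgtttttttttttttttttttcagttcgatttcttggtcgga
RPS14B upstream: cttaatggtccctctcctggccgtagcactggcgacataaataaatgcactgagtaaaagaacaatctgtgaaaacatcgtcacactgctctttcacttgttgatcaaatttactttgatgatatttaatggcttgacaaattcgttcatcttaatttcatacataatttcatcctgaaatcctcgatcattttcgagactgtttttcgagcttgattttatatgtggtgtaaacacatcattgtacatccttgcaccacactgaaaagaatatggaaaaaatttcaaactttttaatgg

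SNR44 (XII:856710-856920, forward strand) is the snoRNA inside an intron of RPS22B, and it is shown because it made up most of the value deposited for that gene.
SNR44: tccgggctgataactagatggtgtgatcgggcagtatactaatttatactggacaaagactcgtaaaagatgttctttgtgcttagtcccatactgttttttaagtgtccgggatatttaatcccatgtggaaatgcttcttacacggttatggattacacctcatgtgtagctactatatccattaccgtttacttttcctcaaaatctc
The coding sequences of RPL41A (IV:130407-130484, reverse strand) and RPL41B (IV:221724-221801, reverse strand) are shown because reads of this pair can hardly be told apart. They differ by C9T, counted from the first base of the RPL41A start codon, and capitals mark that base.
RPL41A: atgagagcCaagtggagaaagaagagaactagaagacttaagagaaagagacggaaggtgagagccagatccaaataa
RPL41B: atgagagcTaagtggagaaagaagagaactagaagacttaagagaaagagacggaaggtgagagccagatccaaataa

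As a family, the ribosomal protein genes took 15.6% and 15.2% of gene reads in GPD-SIR3, 15.8% and 16.2% in GPD-SIR3-A2Q, 17.2% and 16.6% in SIR3Δ, and 17.4% and 15.7% in WT. These shares count RPS22B as deposited, most of whose value was that of SNR44. Shares without SNR44 were not computed. Both GPD-SIR3 libraries were below both WT libraries, and the other strains overlapped WT on this scale. The mean share was 15.4% ± 0.257 in GPD-SIR3 and 16.6% ± 1.17 in WT (SD, n = 2 each), with an exact permutation p of 0.33, two-sided, the smallest that 2 libraries against 2 can give. For GPD-SIR3-A2Q (16.0% ± 0.294) and SIR3Δ (16.9% ± 0.396) against WT the exact permutation p was 1. As a share of the reads on all features, snoRNAs included, the members were lower than WT without overlap in all 3 strains, with differences of −1.15 percentage points for GPD-SIR3, −0.98 for GPD-SIR3-A2Q and −0.35 for SIR3Δ, each with an exact permutation p of 0.33. The difference of SIR3Δ was 0.35 percentage points of gene reads, so its direction turned with the scale. Without WT 1, the differences in gene reads were −0.30 for GPD-SIR3, 0.24 for GPD-SIR3-A2Q and 1.18 for SIR3Δ. Without WT 2, they were −1.96, −1.42 and −0.48. In bulk RNA, fewer cells making a transcript and less of it per cell cannot be told apart.

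The median member stood 0.11 lower in GPD-SIR3 than in WT, against a median over all genes tested of 0.04. In that comparison 109 of 136 members were below 0, and 40.7% of all genes were. In GPD-SIR3-A2Q the median member was at −0.07 and 102 members were below 0, against a median of −0.03 over all genes, of which 55.6% were below 0. In SIR3Δ the median member was at 0.01 and 64 members were below 0, against a median of −0.07 over all genes, of which 63.9% were below 0. Against the median of all genes, the members were thus 0.15 lower in GPD-SIR3, 0.04 lower in GPD-SIR3-A2Q and 0.08 higher in SIR3Δ. Scaling to all features turned the median member of SIR3Δ to −0.06, with the median of all genes at −0.15. None of these shifts exceeded the distance between the WT libraries. Relative to the WT mean, the median member was at 0.09 in WT 1 and −0.09 in WT 2, while the median of all genes stayed within 0.01 of 0 in both. Without WT 1, the family medians were −0.0005 for GPD-SIR3, 0.03 for GPD-SIR3-A2Q and 0.10 for SIR3Δ. Without WT 2, they were −0.21, −0.17 and −0.09.

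**Figure D1:**
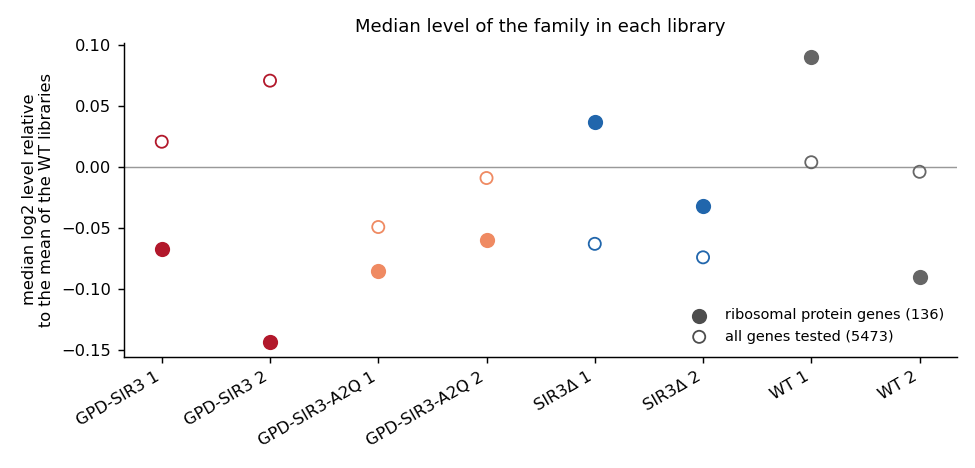
Median log2 level in each library relative to the mean of the WT libraries, for the 136 ribosomal protein genes (filled) and all genes tested (open). The WT libraries stand at 0.09 and −0.09 for the family, a gap that holds the points of every other library except GPD-SIR3 2 (−0.14).

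Members were steadier than other genes over the 8 libraries. The median SD of the log2 level was 0.13 for members and 0.20 for all genes tested, and members were also more abundant, with a median mean level of 6403 against 286. The SD was below 0.25 for 129 members. The steadiest were RPL17A, with an SD of 0.035 and values from 10253 to 10940, and RPL3, which reaches the peptidyl transferase centre, also with an SD of 0.035. RPL16A, RPL21A and RPL8A followed, with SDs of 0.06 to 0.07. The members with the largest SD were RPL41A (0.69), RPS22B (0.52), RPS9A (0.50), RPL18B (0.29) and RPL29 (0.28).

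Levels per kb of coding sequence ran from 278 for RPL15B to 51599 for RPS22B, with a median of 16644. The RPS22B level was mostly SNR44, as given below, and the next highest was RPS31, which encodes a small-subunit protein fused to ubiquitin, at 47088. By deposited value the most abundant members were RPL3, RPL5, RPS2, RPL2B and RPS31. The least abundant were RPL15B, RPL22B, RPL41A, RPS9A and RPL7B, each the weaker gene of its pair.

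In the large subunit, no member was called by limma in any comparison, and the median against WT was −0.10 for GPD-SIR3, −0.07 for GPD-SIR3-A2Q and −0.01 for SIR3Δ, where it turned to 0.06 with TMM scaling. RPL18B had values of 1178 and 946 in GPD-SIR3, 1338 and 1624 in GPD-SIR3-A2Q, 1707 and 1620 in SIR3Δ, and 1615 and 1470 in WT. The GPD-SIR3 libraries were the lowest of the 8, apart from those of every other strain. Its difference of −0.54 ± 0.14 from WT did not pass limma (adjusted p = 0.190, 0.0375 to 0.790 over the alternatives). It passed in DESeq2 on recovered reads. The difference of RPL18B between GPD-SIR3 and GPD-SIR3-A2Q, −0.48 ± 0.14, did not pass either (limma adjusted p = 0.242).

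RPL9B, a gene of the uL6 protein at the base of the stalk, had 3889 and 3784 in GPD-SIR3, 3498 and 3479 in GPD-SIR3-A2Q, 4021 and 3951 in SIR3Δ, and 4778 and 4586 in WT. WT held the highest values and GPD-SIR3-A2Q the lowest, with no overlap between any of the strains. Of its 50-base stretches 14.0% occur elsewhere, so its level is uncertain, as is that of RPL2B with 18.2%. The difference from WT was −0.42 ± 0.09 in GPD-SIR3-A2Q (limma adjusted p = 0.110) and −0.29 ± 0.09 in GPD-SIR3 (limma adjusted p = 0.340). RPL2B had the highest difference from WT among members outside RPL41A, at 0.23 ± 0.11 in GPD-SIR3 and 0.31 ± 0.11 in GPD-SIR3-A2Q, neither of them called (limma adjusted p = 0.642 and 0.658).

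RPL41A encodes the smallest ribosomal protein. Its value was 663 and 2565 in GPD-SIR3, 755 and 1172 in GPD-SIR3-A2Q, 566 and 761 in SIR3Δ, and 697 and 1002 in WT. GPD-SIR3 2 alone stood far above the other 7 libraries. The difference of 0.64 ± 0.52 from WT turned to −0.33 without that library. Of the 50-base stretches of RPL41A, 69.0% occur elsewhere in the genome, so its level is uncertain.

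In the stalk, the P proteins that recruit translation factors, no gene was called. In GPD-SIR3 against WT all 5 stalk genes were below 0. RPP1A was at −0.28 ± 0.10 (limma adjusted p = 0.412), RPP2B at −0.22 and RPP1B at −0.20, while RPP0, the anchor of the stalk, was at −0.06 and RPP2A at −0.02. All 5 were above 0 in SIR3Δ, from 0.06 for RPP0 to 0.17 for RPP2A, and 4 were when scaled to all features. In GPD-SIR3-A2Q they ran from −0.12 for RPP2B to 0.13 for RPP2A.

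In the small subunit, RPS9A fell in GPD-SIR3-A2Q, and 3 members separated the strains with a GPD promoter from the others most clearly. RPS9A (YPL081W, XVI:404950-406044, with an intron) encodes uS4, which binds early in small-subunit assembly and acts in decoding accuracy. Its value was 874 and 779 in GPD-SIR3, 629 and 636 in GPD-SIR3-A2Q, 1161 and 1406 in SIR3Δ, and 1235 and 1522 in WT. All 4 libraries with a GPD promoter were below all 4 others, and those of GPD-SIR3-A2Q were the lowest. The mean was 632 ± 5.09 in GPD-SIR3-A2Q and 1378 ± 203 in WT (SD, n = 2 each), a difference of −1.12 ± 0.14, or 2.17-fold lower (limma adjusted p = 0.00733, 1.57e-07 to 0.116 over the alternatives). It was the single member called in that comparison, where 0.621% of all genes tested were called lower. The call ended without GPD-SIR3-A2Q 1 (0.116), GPD-SIR3-A2Q 2 (0.0880) or WT 2 (0.0713).

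In GPD-SIR3 the mean of RPS9A was 827 ± 67.2 (SD, n = 2), a difference of −0.73 ± 0.14 from WT that just missed the threshold (limma adjusted p = 0.0530). It passed with median-of-ratios or upper-quartile scaling (0.0445 and 0.0426) and with DESeq2 (0.000938). No member was called by limma in that comparison, in which 1.08% of all genes tested were called lower and 0.238% higher. Counts of members called lower by other tools were 0 with edgeR, 4 with DESeq2 (RPS14B, RPS25B, RPL18B and RPS9A), which called 1.79% of all genes lower, and 1 with limma-voom (RPS14B), which called 1.1%. At an unadjusted p below 0.05, limma had 15 members, all lower, or 11% of the members. Of all genes tested 8.68% had such a p, and 4.29% were also lower. Between GPD-SIR3 and GPD-SIR3-A2Q, RPS9A was at 0.38 ± 0.14 (limma adjusted p = 0.415), so a difference between the overexpressing strains was not shown. In SIR3Δ, RPS9A was at −0.10 ± 0.14 from WT (limma adjusted p = 0.921).

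RPS14B (YJL191W, X:73787-74611, with an intron) encodes uS11 of the platform. Excess of this protein is known to block splicing of its own transcript. RPS14B had 1878 and 1988 in GPD-SIR3, 2009 and 2273 in GPD-SIR3-A2Q, 2626 and 2592 in SIR3Δ, and 2658 and 2822 in WT. The 4 libraries with a GPD promoter again lay below the other 4, and the SIR3Δ libraries lay just below those of WT. The difference from WT was −0.50 ± 0.10 in GPD-SIR3 (limma adjusted p = 0.0663, 0.00465 to 0.335 over the alternatives) and −0.36 ± 0.10 in GPD-SIR3-A2Q (limma adjusted p = 0.399). Neither passed as deposited. The GPD-SIR3 difference passed with TMM, median-of-ratios or upper-quartile scaling, with DESeq2 and with limma-voom. In SIR3Δ the difference was −0.07 ± 0.10.

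RPS22B (YLR367W, XII:855878-857317 in the deposited table) encodes uS8, and its deposited value was chiefly that of a snoRNA. The row of SNR44, inside its intron and on the same strand, equalled 84.9% to 93.5% of the value of RPS22B. As deposited, RPS22B had 15144 and 14253 in GPD-SIR3, 11999 and 17086 in GPD-SIR3-A2Q, 29993 and 28710 in SIR3Δ, and 27951 and 17091 in WT. The SNR44 row had 13834 and 12841 in GPD-SIR3, 10832 and 15978 in GPD-SIR3-A2Q, 27472 and 26256 in SIR3Δ, and 25637 and 14502 in WT. The gap between WT 1 and WT 2 in RPS22B was thus a gap in SNR44, and WT 2 was the library with the lowest snoRNA share. As deposited, RPS22B was at −0.57 ± 0.22 in GPD-SIR3 and −0.61 ± 0.22 in GPD-SIR3-A2Q against WT, with limma adjusted p of 0.508 and 0.654.

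With the SNR44 value taken off, what remained of the RPS22B value fell in both overexpressing strains. The remainder was 1310 and 1412 in GPD-SIR3, 1166 and 1109 in GPD-SIR3-A2Q, 2521 and 2454 in SIR3Δ, and 2314 and 2589 in WT. No library with a GPD promoter came near the other 4, and SIR3Δ and WT overlapped. The mean was 1361 ± 72.5 in GPD-SIR3, 1137 ± 40.8 in GPD-SIR3-A2Q, 2487 ± 47.6 in SIR3Δ and 2452 ± 194 in WT (SD, n = 2 each). Fitted again over all genes, with 1.1% of genes called lower, the difference from WT in GPD-SIR3 was −0.85 ± 0.11, or 1.80-fold lower (limma adjusted p = 0.00381, 6.62e-08 to 0.0562 over the alternatives). In GPD-SIR3-A2Q, with 0.64% of genes called lower, it was −1.11 ± 0.11, or 2.15-fold lower (limma adjusted p = 0.00103, 1.95e-11 to 0.0277 over the alternatives). In SIR3Δ it was 0.02 ± 0.11 (limma adjusted p = 0.973). The GPD-SIR3 call ended without WT 2 (0.0504) and when the fit held only the 2 strains (0.0562). This step was added after the data were seen, and it assumes that reads of SNR44 were also counted for RPS22B. Over the 8 libraries the remainder had a Pearson r of 0.73 with the SNR44 value. It covers the rest of a span of 1440 bases, of which 393 are coding, so reads of intron or precursor may be in it. Whether the mRNA itself fell was not tested.

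**Figure D2:**
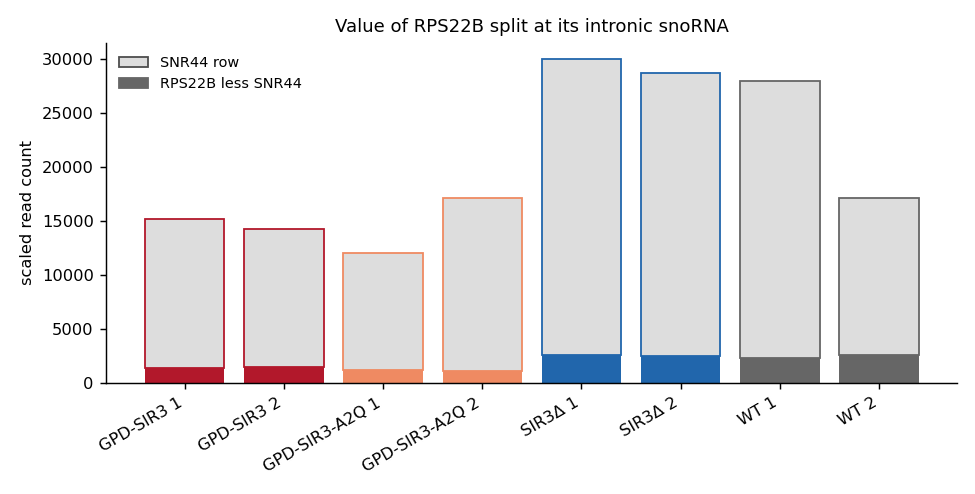
Scaled read count of RPS22B in each library, split into the SNR44 row (grey) and the remainder (coloured). The grey part makes up 84.9% to 93.5% of each bar and varies within WT, while the coloured remainder runs from 1109 to 1412 in the libraries with a GPD promoter and from 2314 to 2589 in the other 4.

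Intronic snoRNAs were a smaller part of 2 large-subunit members. SNR39 equalled 12.8% to 16.9% of RPL7A, and SNR59 equalled 17.1% to 25.8% of RPL7B. Neither RPL7A nor RPL7B was called with or without the snoRNA value. Without it, RPL7A was at −0.22 ± 0.12 and RPL7B at −0.34 ± 0.17 in GPD-SIR3 against WT (limma adjusted p = 0.657 and 0.639).

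**Figure D3:**
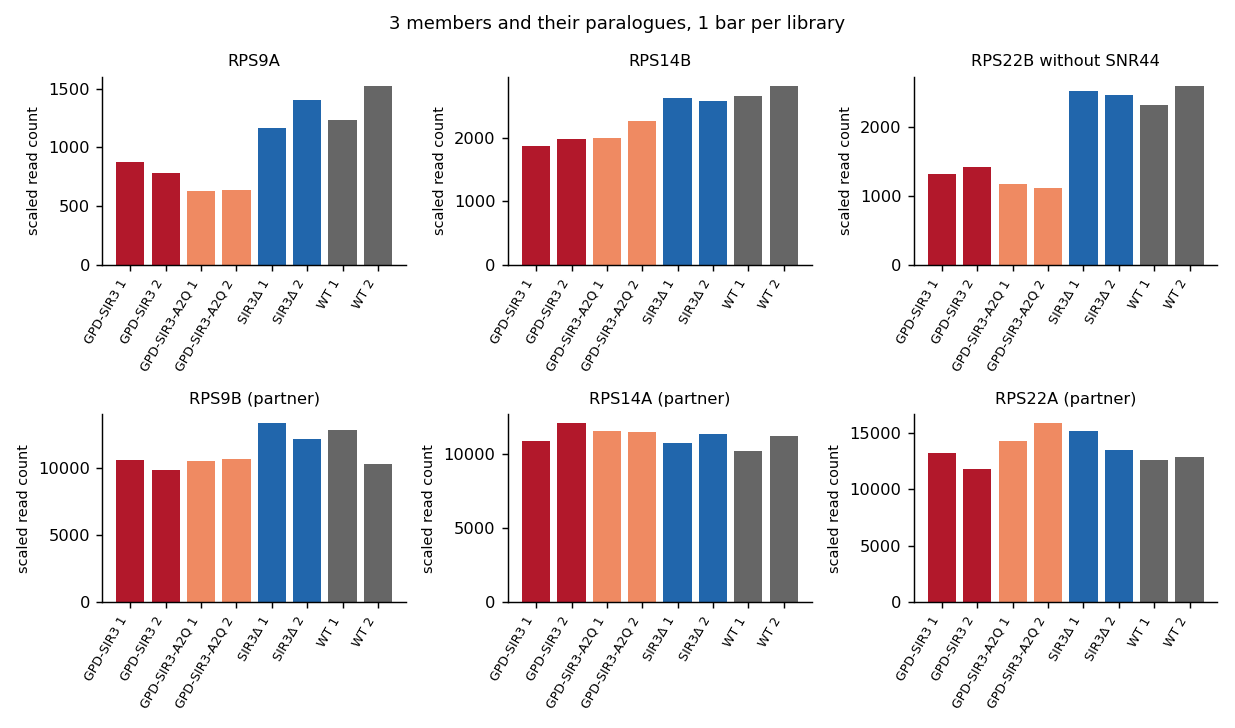
Scaled read count per library of RPS9A, RPS14B and RPS22B without SNR44 (top) and of their paralogues (bottom). In each upper panel the 4 libraries with a GPD promoter are below the other 4, and in no lower panel are they. At RPS9B only the lower WT library falls among them.

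The paralogues of these 3 genes did not separate the strains in that way. RPS9B had 10582 and 9854 in GPD-SIR3, 10491 and 10660 in GPD-SIR3-A2Q, 13308 and 12182 in SIR3Δ, and 12799 and 10271 in WT. For RPS9B this rested on the lower WT library alone, at 10271. The higher WT library and both SIR3Δ libraries lay above every library with a GPD promoter, so a lower level of RPS9B in those strains is not excluded. RPS14A had 10907 and 12100 in GPD-SIR3, 11596 and 11506 in GPD-SIR3-A2Q, 10804 and 11354 in SIR3Δ, and 10228 and 11220 in WT. RPS22A had 13246 and 11843 in GPD-SIR3, 14319 and 15850 in GPD-SIR3-A2Q, 15149 and 13480 in SIR3Δ, and 12616 and 12859 in WT. In each of these pairs the gene that separated the strains in that way is the weaker of the pair per kb of coding sequence. RPS9A averaged 1734 per kb and RPS9B 19164, RPS14B 5649 and RPS14A 27088, and the RPS22B remainder 2821 to 6588 over the libraries with RPS22A at 30135 to 40330. In the larger group given next, the gene that separated the strains was not always the weaker. RPL22A, RPL43A and RPS27B were the stronger of their pairs in every library, and RPL9B, RPL16A and RPP2B the weaker. The order of the RPP1 pair changed among libraries. RPS9A, RPS14B and RPS22B all have an intron in the coding sequence, as do 89 of the 136 members.

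Beyond these 3, a larger group of members lay lower in the strains with a GPD promoter. All 4 such libraries were below all 4 of SIR3Δ and WT at 14 of the 136 members, or 10.3%, against 2.87% of all genes tested. They were above at RPL2B alone, or 0.735%, against 3.03%. Besides RPS9A, RPS14B and RPS22B, the 14 were RPS3, RPS12, RPS13 and RPS27B of the small subunit, RPL9B, RPL16A, RPL22A, RPL30 and RPL43A of the large subunit, and RPP1A and RPP2B of the stalk. RPS22B was counted here as deposited, with SNR44 in it, where the sides came as close as 17086 and 17091. They were also close at RPP1A (9301 and 9325) and RPL16A (5571 and 5604). The mean difference in log2 level was at a median of −0.23 over the 14 and smallest at RPL16A, at −0.09. With other scalings the number below was 10 to 25, with 3.02% to 3.76% of all genes, and no member was above. This count was added after the data were seen.

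RPS3, which lies at the mRNA entry channel, had 17852 and 19061 in GPD-SIR3, 17681 and 17563 in GPD-SIR3-A2Q, 21879 and 21166 in SIR3Δ, and 24624 and 21475 in WT. RPS13 had 13465 and 13253 in GPD-SIR3, 14768 and 14553 in GPD-SIR3-A2Q, 17904 and 17775 in SIR3Δ, and 16506 and 16719 in WT. Both show the same split, with no library of one side inside the range of the other. Neither gene passed limma, with RPS3 at −0.32 ± 0.10 (adjusted p = 0.338) and RPS13 at −0.31 ± 0.08 (adjusted p = 0.202) in GPD-SIR3 against WT.

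**Figure D4:**
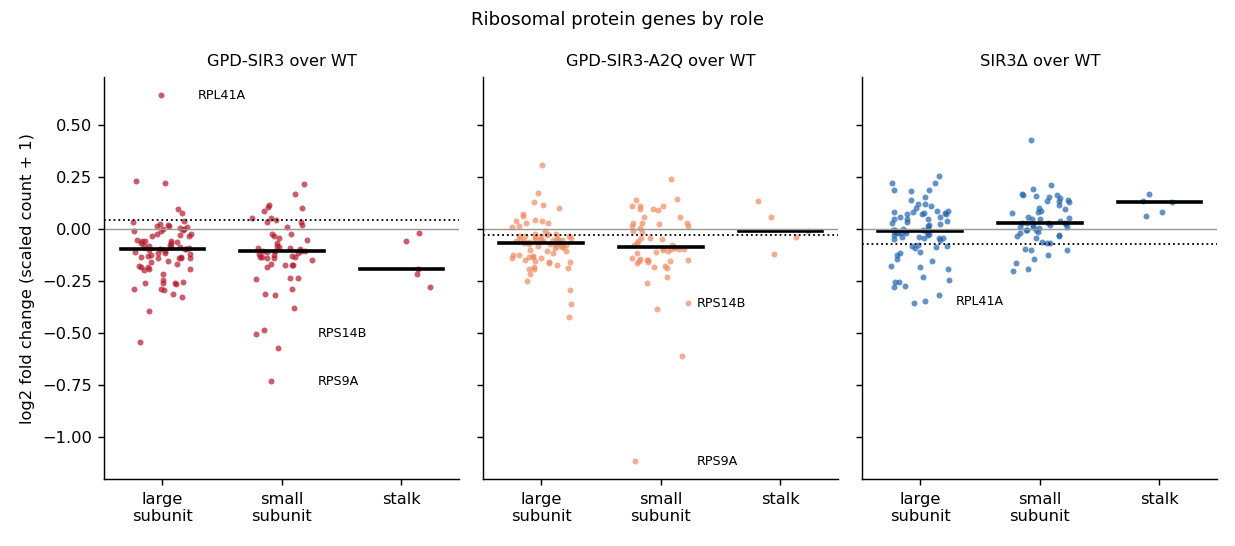
log2 fold change of each ribosomal protein gene against WT, by role, in 3 strains, with the median of each role (bar) and of all genes tested (dotted line). Most points lie within 0.5 of 0. RPS9A in GPD-SIR3-A2Q, at −1.12, is the single member called by limma as deposited.

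Against WT, the groups did not overlap for 32 members lower and 3 higher in GPD-SIR3, for 26 lower and 12 higher in GPD-SIR3-A2Q, and for 16 lower and 21 higher in SIR3Δ. Of all genes tested, 13.3%, 23.3% and 28.3% were lower without overlap in these 3 comparisons, and 20.5%, 16.5% and 11.2% were higher. The share of members lower without overlap was 23.5% for GPD-SIR3, 19.1% for GPD-SIR3-A2Q and 11.8% for SIR3Δ.

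In SIR3Δ against WT no member was called by limma, where 0.968% of all genes tested were called, and none by edgeR or DESeq2. At an unadjusted p below 0.05 there were 3 members, or 2.21%, against 8.44% of all genes tested. Of the 3, RPL31A was at −0.36 ± 0.14, RPL9B at −0.23 ± 0.09 and RPL16B at 0.22 ± 0.10. Their limma adjusted p were 0.497, 0.511 and 0.574. RPL31A had 3344 and 3388 in SIR3Δ and 4948 and 3759 in WT, without overlap.

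GPD-SIR3 against GPD-SIR3-A2Q, which sets wild-type Sir3 against the point mutant at similar levels of SIR3 RNA, called no member by limma, edgeR or DESeq2. Of all genes tested 1.46% were called by limma. At an unadjusted p below 0.05 there were 8 members, 6 of them lower, or 5.88% of the members against 10.2% of all genes tested. RPL22B had 738 and 805 in GPD-SIR3 and 587 and 598 in GPD-SIR3-A2Q, at 0.38 ± 0.14 (limma adjusted p = 0.392). RPL43B had 2625 and 3127 in GPD-SIR3 and 3353 and 3795 in GPD-SIR3-A2Q, at −0.32 ± 0.12 (limma adjusted p = 0.410). These groups did not overlap.

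Of the 136 members, 116 form 58 pairs of A and B genes. Per kb of coding sequence, the A gene was higher in all 8 libraries in 31 pairs, the B gene in 17, and the order changed among libraries in 10. RPS22 was among the 10 as deposited, with SNR44 in the value of RPS22B. Without the snoRNA values RPS22A was higher in all 8 libraries, and the counts were 32, 17 and 9. Per kb of the deposited span, introns included, the counts were 34, 21 and 3. The A gene gave most of the per-kb level of RPL15 (98.9% over the 8 libraries), RPL22 (93.9%), RPL18 (91.7%), RPL7 (87.5%) and RPS7 (84.2%). Without the snoRNA values RPL7A gave 88.2%, and RPS22A gave 88.0% (83.2% to 93.5% over the libraries), above RPS7A. It gave least in RPS9 (8.21%), RPS27 (16.8%), RPL26 (22.4%), RPL41 (23.5%) and RPL16 (25.1%). In 16 pairs, over 10% of the 50-base stretches of either gene occur elsewhere, so their split is uncertain. RPL15, RPL7 and RPL41 are among these.

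The share of each paralogue mostly varied little. The log2 ratio of A to B ranged over less than 0.5 across the 8 libraries in 43 of 58 pairs, with a median range of 0.39. In GPD-SIR3 against WT the ratios did not overlap in 17 of 58 pairs, against 31.1% of the 61 A/B-named pairs in the table. The counts were 24 for GPD-SIR3-A2Q against WT and 19 for SIR3Δ against WT, against 42.6% and 31.1%. Since 58 of the 61 pairs are members, these shares are nearly the same count.

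RPS14 and RPS9 were among the pairs that differed most between strains. Unlike the other differences, those of log2 ratios are given ± SE from a separate limma fit. That fit held the A/B-named pairs alone, nearly all of them members. The log2 ratio of RPS14A to RPS14B was 2.54 and 2.61 in GPD-SIR3, 2.53 and 2.34 in GPD-SIR3-A2Q, 2.04 and 2.13 in SIR3Δ, and 1.94 and 1.99 in WT. The libraries with a GPD promoter were all above the others, by 0.60 ± 0.11 in GPD-SIR3 and 0.47 ± 0.11 in GPD-SIR3-A2Q against WT. The log2 ratio of RPS9A to RPS9B was −3.60 and −3.66 in GPD-SIR3, −4.06 and −4.07 in GPD-SIR3-A2Q, −3.52 and −3.11 in SIR3Δ, and −3.37 and −2.75 in WT. Here they were all below the others, by −0.56 ± 0.26 in GPD-SIR3 and −0.999 ± 0.26 in GPD-SIR3-A2Q against WT.

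The log2 ratio of RPS22A to the remainder of RPS22B was 3.34 and 3.07 in GPD-SIR3, 3.62 and 3.84 in GPD-SIR3-A2Q, 2.59 and 2.46 in SIR3Δ, and 2.45 and 2.31 in WT, again with no overlap between the sides. RPL9, RPL42 and RPL2 also had all 4 libraries with a GPD promoter apart from the other 4. In these pairs over 10% of the 50-base stretches occur elsewhere, so their split is uncertain. With RPS14, RPS9 and RPS22 as deposited, 6 of the 58 pairs stood apart in this way. Over all A/B-named pairs, nearly all of them members, that share was 11.5%.

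The log2 ratio of RPL22A to RPL22B stood apart in GPD-SIR3. It was 3.66 and 3.43 in GPD-SIR3, 4.03 and 4.03 in GPD-SIR3-A2Q, 4.06 and 4.39 in SIR3Δ, and 4.01 and 4.06 in WT. The GPD-SIR3 libraries were the lowest of the 8, by −0.49 ± 0.16 against WT and −0.49 ± 0.16 against GPD-SIR3-A2Q.

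**Figure D5:**
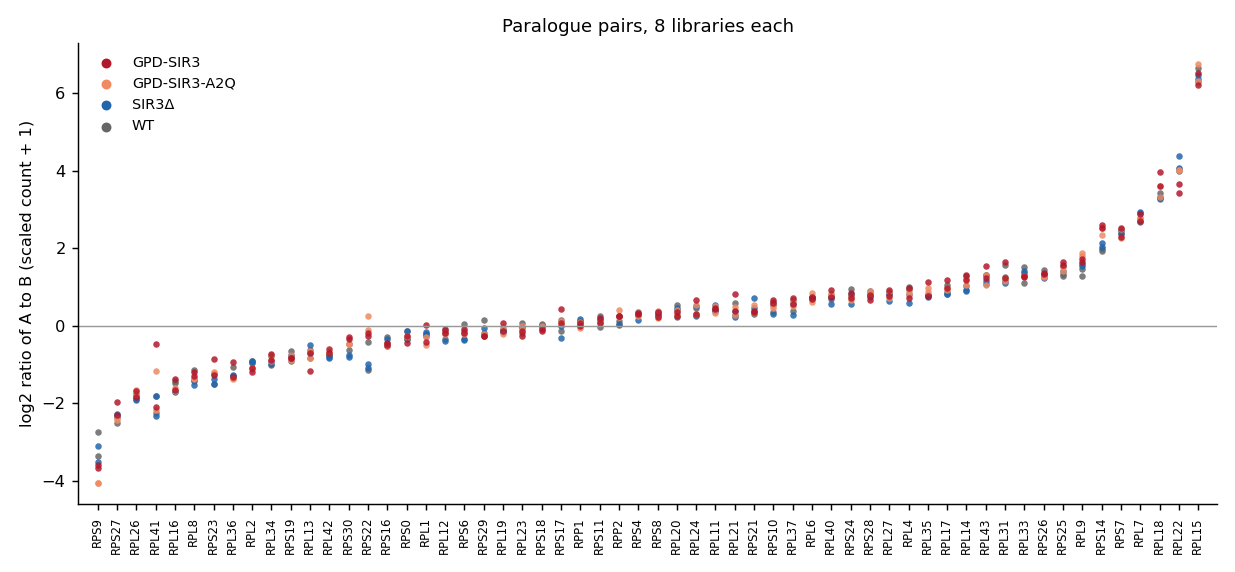
log2 ratio of the A to the B gene in each of the 58 pairs, 8 libraries each, ordered by the mean. Points of a pair mostly overlie each other, and RPS9, RPL41, RPS22, RPS14 and RPL22 are spread the widest by strain or library.

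The promoters held the elements of the family's known regulators at differing rates. Each motif was searched on both strands, without regard to overlap between motifs, in windows before the start codon of the reference annotation. In the 500 bases before the start, CCCNNACA, a core of the Rap1 site, occurred in 47.1% of the members' promoters and 12.8% of all. GACGC occurred in 42.6% of the members' promoters and 30% of all, and AAAATTTT, an element associated with Sfp1, in 12.5% and 12.7%. In the window from 250 bases before to 50 after the start, the shares of CCCNNACA were 11.8% and 6.7%. The upstream region of RPS9A printed above holds 1 GACGC and that of RPS14B none of the 3. In that window GACGC occurred in 34.6% of the members' promoters and 20.2% of all. Only exact matches were searched, so a site that departs from a pattern by 1 base is missed.

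No member lay within 30 kb of a chromosome end, the region where Sir3 acts most. The nearest was RPL8A at 35.3 kb, and 8 members lay within 50 kb. RPL8A was at −0.10 ± 0.10 in GPD-SIR3 against WT (limma adjusted p = 0.835).

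None of 18 regulators of ribosomal protein genes was called by limma in any comparison. At an unadjusted p below 0.05 there were 2 for GPD-SIR3 (STB3 and SCH9), 2 for GPD-SIR3-A2Q (SCH9 and CRF1) and 1 for SIR3Δ (CKB1) against WT. Of all genes tested in GPD-SIR3-A2Q against WT, 6.85% had such a p. In GPD-SIR3 STB3 was at 0.49 ± 0.19 and SCH9 at 0.26 ± 0.10 (limma adjusted p = 0.491 and 0.512). SCH9 had 1556 and 1413 in GPD-SIR3, 1510 and 1490 in GPD-SIR3-A2Q, 1253 and 1188 in SIR3Δ, and 1264 and 1204 in WT. Its libraries with a GPD promoter were all above the others, as at 3.03% of all genes tested. SCH9 was looked at for its low unadjusted p in the same libraries, and the sides overlapped at the other regulators. RAP1 was at 0.06, FHL1, the forkhead factor of these promoters, at 0.01, IFH1, its coactivator, at 0.05, SFP1 at −0.11 and HMO1 at −0.11 in GPD-SIR3 against WT. CRF1, a corepressor, was at −1.50 ± 0.61 in GPD-SIR3-A2Q (limma adjusted p = 0.696), at values of 5.83 and 7.38 in GPD-SIR3-A2Q and 33.3 and 12.3 in WT. None of 10 chaperones of ribosomal proteins, 66 ribosome assembly genes, 15 RNA polymerase I genes or 35 translation factors was called by limma in any comparison. In GPD-SIR3 against WT their medians were −0.02, −0.01, 0.09 and −0.11, with 0, 0, 0 and 2 genes at an unadjusted p below 0.05.

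The mitochondrial ribosomal protein genes, which serve the ribosome of the organelle, were followed beside the family. Their 66 tested genes had a median of 0.32 in GPD-SIR3 against WT. Of them 65 were above 0, against 3247 of all 5473 genes tested. At an unadjusted limma p below 0.05 there were 17, or 25.8%, against the 8.68% of all genes tested given above. In GPD-SIR3-A2Q against WT the median was −0.06, with 1 gene at such a p, or 1.52%, against 6.85% of all genes tested. In SIR3Δ against WT it was −0.11, with 50 of 66 below 0. Over all genes tested the median there was −0.07, with 63.9% below 0. Such a p was reached by 3 genes in SIR3Δ, or 4.55%, against 8.44% of all. In GPD-SIR3 against GPD-SIR3-A2Q the median was 0.36, with 27 genes at such a p, or 40.9%, against 10.2% of all genes tested. None was called by limma in any comparison. The cytosolic members had a median of −0.11 in GPD-SIR3 and −0.07 in GPD-SIR3-A2Q. The difference between the families was not tested.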

How the data were processed

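Total RNA of 8 libraries was sequenced as SOLiD paired ends of 50 and 35 bases, per the labels' protocols, and TopHat 1.4.1 and build R64 are named in the submitters' processing notes. The authors deposited scaled values, a signal in which each library's reads are multiplied by a constant, except GPD-SIR3 2, whose deposited values are whole counts. Whole reads were recovered for 100% of values (tolerance 0.01). The tool that counted, its use of strand and its handling of reads that match several places were not stated in the labels or headers read. A further 8 columns of per-library values and 8 pooled columns were not used.

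limma 3.58.1 (trend, R 4.3.3) was run on log2(value + 1) for the 5473 genes that reached 10 in 2 or more libraries, with all 4 strains in the model. edgeR 4.0.16, DESeq2 1.42.0 and limma-voom on recovered reads, other scalings, filters, fits and each library left out were the alternatives. The members, lists and tests were chosen with earlier results of these data known. No p is given for A to B ratios, since 58 of the 61 A/B-named pairs are members and the adjustment would run over the family almost alone. Promoters start at the reference annotation, because 13 members' deposited spans differ from it. Named members are those called, the 4 highest and lowest per comparison, the stalk genes and the extremes of level, SD and pair ratio. RPS13, RPS25B, RPL7A, the 14 separated members and the paralogues of the 3 members followed in detail were chosen after their values were seen, as were the snoRNA step and the wider promoter windows. Both libraries of a strain differed beyond counting noise in every strain, with a chi-square per degree of freedom of 16 to 42.3. The limma fit was checked on simulated data. The most abundant genes were left unchanged there, so the check does not tell how changes in members at such levels are recovered.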

Additional observations from a re-analysis of the deposited data

How the results depend on the processing

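Replicate numbers of the titles were not taken to pair the samples. Over all genes, correlations between strains ran from −0.03 to 0.55, with 4 of 6 above 0. Over the members they were 0.04 to 0.66, all 6 above 0 and 4 over 0.1. With the replicate block, 2 members were called in GPD-SIR3 against WT (RPS9A, limma adjusted p = 0.0277, and RPS14B, 0.0255) in place of 0, and the other counts did not change. The same 2 were called with TMM, median-of-ratios and upper-quartile scaling (2 each), while DESeq2 called 4, limma-voom 1 and the fit without snoRNA values 1 (RPS22B). The cause was not tested. In GPD-SIR3-A2Q against WT, the count of 1 became 2 without snoRNA values, and 0 to 1 with a library left out.

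The family median in GPD-SIR3 against WT ran from −0.21 to −0.0005 with a library left out, in GPD-SIR3-A2Q against WT from −0.17 to 0.031, in SIR3Δ against WT from −0.085 to 0.10 and in GPD-SIR3 against GPD-SIR3-A2Q from −0.07 to −0.02. In the last comparison it was −0.05 as deposited, −0.11 with TMM, upper-quartile and limma-voom, −0.12 with median-of-ratios, edgeR and DESeq2. The difference in read share there was −0.54 percentage points of gene reads and −0.16 over all features.

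RPS23A in GPD-SIR3 against WT ran from −0.079 to 0.51 with a library left out, turning without GPD-SIR3 2. RPL41A ran from −0.33 to 1.62 in GPD-SIR3 against WT and from −0.50 to 1.45 in GPD-SIR3 against GPD-SIR3-A2Q, turning without GPD-SIR3 2. In GPD-SIR3-A2Q against WT it ran from −0.15 to 0.49, turning without GPD-SIR3-A2Q 2 and without WT 1 (−0.09). RPS22B without SNR44 in SIR3Δ against WT turned to −0.053 with scaling to all features and −0.058 without WT 1. With 2 libraries per strain, leaving 1 out assumes that the lone library varies like the others.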

Other observations

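Among genes outside the family, the mean log2 level of the members over the 8 libraries was matched most closely by INP54 (Pearson r = 0.963), URA4 (0.961), MES1 (0.958), PIN4 (0.950) and SUB2 (0.947). These are descriptions over 8 libraries that share their depth and scaling. MES1 encodes methionyl-tRNA synthetase, URA4 an enzyme of pyrimidine synthesis and SUB2 an RNA helicase of splicing and mRNA export.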
